A study of Schizosaccharomyces pombe with 2 samples.

Results

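In some fission yeast genes most of the mRNA ends mapped just after the stop codon are recorded at 1 position. Of the 5113 protein-coding genes of Schizosaccharomyces pombe in the deposited tables, 3321 had at least 100 normalised reads in both libraries within the 400 nt that follow the stop codon. In 319 of these 3321 genes, 9.61%, at least 75% of those reads lay at 1 position in each library. These 319 are called single-position genes below, and the other 3002 with enough reads serve as the background. They were chosen by the share of reads at the most used position, so that share is described here without a test.

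The samples were 2 sequencing libraries, replicates A and B, of a strain labelled FWP9 that the submitters call wild type, growing exponentially at 30 °C in YPD, a rich medium with glucose. RNA was extracted with hot phenol and sequenced by 3' READS, which reads the junction of a transcript and its poly(A) tail, so a read marks the end of 1 molecule and levels of genes need no scaling by length. Both libraries belong to the same group, and the labels do not say whether they came from separate cultures, so the spread between A and B may be technical. With 1 group no test over samples could be made, and all comparisons are counts and medians over genes. The windows held 47392966 normalised reads in A and 47599224 in B.

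Polyadenylation follows cleavage of the nascent transcript by a large protein complex that binds an A-rich element upstream of the cut and U-rich stretches around it. The complex often cuts at several places a few nucleotides apart, and many yeast genes also have separate sites farther along, so that the product of a gene is a population of messages with different 3' untranslated regions (UTRs). A gene whose reads fall on a single position is at the far end of that range.

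The sequences around the sites of 13 genes are shown for what the position looks like in the genome: the 6 single-position genes with the highest share of reads at the site, 3 of those with the most reads, 2 of those that end closest to the stop codon, and 2 genes that missed the share of 75% in 1 library. Each line gives the 25 bases before the site, the site itself as base 26 and the 4 bases after it, read 5′ to 3′ on the coding strand. Capitals mark the run of A that starts right after the site and, where it lies among these bases, AATAAA or the hexamer with 1 base changed from it.
rps2502: atcAATAAAtccattttttcattttgAAAc
rpn6: tggataAATAAAttatttttaaatctAAAt
SPBC1289.14: cacAATAAGatttatttgacgagcgtAAAt
qcr7: ttttaattgaacaacgattttttcttAttt
rpl2802: aacAATAAAaagtacattgagcggttAAtt
cog5: attaatAATAATtataatttatacatAAAA
rpl42: caattttcttcttttacggtgatcctAAAA
rps102: agctAATGAAaaagagtctacattctAAtt
rpl501: ttaatagtatgtcctgttcttttccgAAAt
csn4: ttcttcaacattacggttcttagaccAAAt
cut23: atatgattaaTATAAAttttatgaccAAAA
trs402: aatagttacgggattcttgacttttgAgat
miy1: attattAATTAAtattgaaatctcctAAAc

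In RefSeq assembly ASM294v3, whose stop codons equal those of all 5113 coding rows, these stretches lie as follows. On the minus strand are rps2502 (chrI:4208427-4208456), qcr7 (chrIII:1887171-1887200), cog5 (chrII:2375710-2375739), rps102 (chrI:898094-898123) and csn4 (chrI:1160212-1160241). On the plus strand are rpn6 (chrI:889058-889087), SPBC1289.14 (chrII:4413391-4413420), rpl2802 (chrIII:657078-657107), rpl42 (chrI:3723035-3723064), rpl501 (chrI:3411853-3411882), cut23 (chrI:1342418-1342447), trs402 (chrI:191351-191380) and miy1 (chrI:328094-328123). The stretches of csn4 and cut23 begin inside the coding sequence, because their sites lie 3 and 16 nt after the stop codon. Those of rpn6, SPBC1289.14, qcr7, rpl2802, cog5, rpl42 and rps102 lie wholly within the annotated 3' UTR, and those of rps2502 and rpl501 run 1 base past its end.

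The 6 genes with the highest shares put at least 98.6% of their reads on 1 nucleotide in either library. The gene of ribosomal protein eS25, rps2502, had 98.9% of 221609 normalised reads at position 44 in A and 99.3% of 181854 in B. The gene of the proteasome regulatory subunit Rpn6 had 98.9% of 1389 reads at position 50 in A and 99.7% of 1226 in B. The gene of complex III subunit qcr7 had 98.8% of 7883 reads at position 367 in A and 99.0% of 5999 in B. Shares this high were thus seen both near the stop codon and far into the window. The UTR of qcr7 is annotated as 547 nt long, past the window, so its share covers the window only and a further site could not be counted. The adducin gene SPBC1289.14 had all of 152 reads at position 66 in A (95% Wilson interval of the share 97.7% to 100%) and 98.9% of 403 in B (97.5% to 99.5%). Gene rpl2802, of ribosomal protein uL15, had 98.8% at position 32 in both libraries, of 148909 reads in A and 94547 in B. Gene cog5, of the COG complex that tethers vesicles at the Golgi, had 99.4% of 443 reads at position 26 in A and 98.6% of 574 in B.

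**Figure D1:**
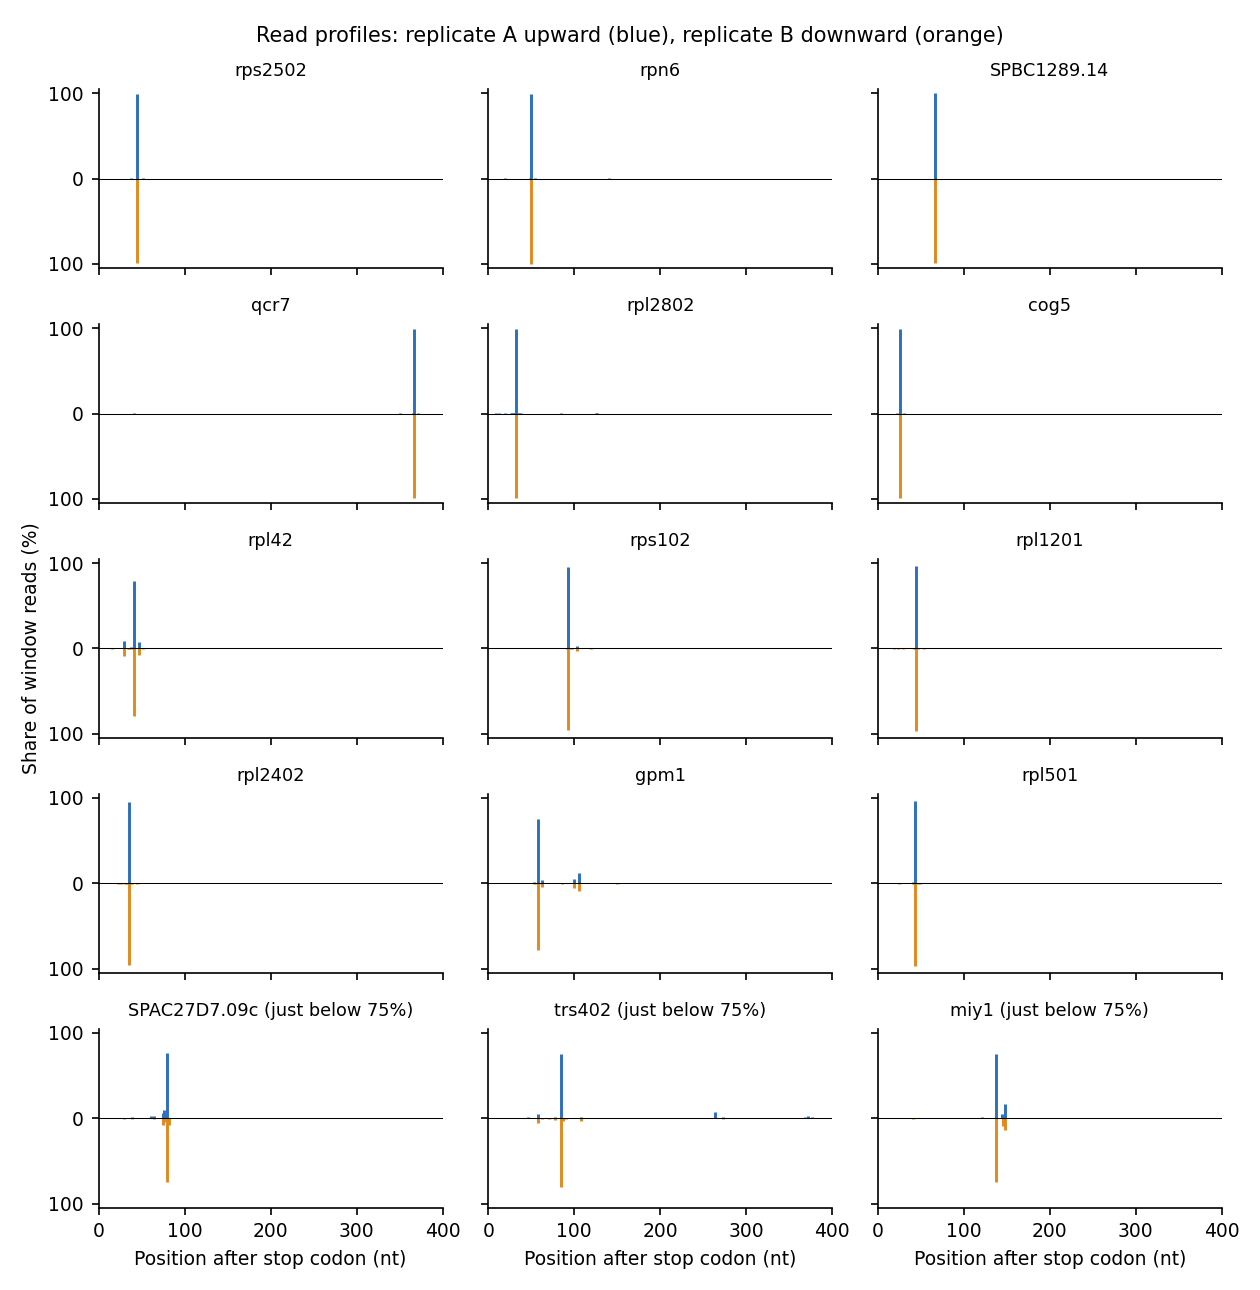
Share of the window reads (%, vertical axis) at each position after the stop codon (nt, horizontal axis), replicate A upward and replicate B downward, for the 6 genes with the highest share, the 6 with the most reads and, in the last row, the 3 just below 75%. The spikes of the first 6 genes reach at least 98.6% at the same position in both libraries, while rpl42 and gpm1 show smaller neighbouring spikes.

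Among the genes with the most reads, rpl42, of ribosomal protein eL42, had 79.1% of 1662120 normalised reads at position 41 in A and 79.6% of 1657720 in B. Its second position, 11 nt upstream, took 9.12% and 8.87%. Gene rps102, of ribosomal protein eS1, had 95.4% of 1148290 reads at position 93 in A and 95.7% of 1283500 in B. The shares of both genes were nearly equal in A and B. Gene rpl1201, of the stalk-base protein uL11, had 96.4% of 755093 reads at position 44 in A and 96.5% of 694451 in B. Gene rpl2402, of eL24, had 95.3% of 580694 reads at position 35 in A and 95.6% of 748408 in B, and rpl501, of uL18, had 96.7% of 489351 and 96.9% of 471005 at position 43. The only gene of the 6 deepest outside the ribosome was gpm1, of the glycolytic phosphoglycerate mutase, with 75.7% of 600961 reads at position 58 in A and 77.6% of 505694 in B.

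By the lower of the 2 totals, the fewest reads belonged to alg1, a mannosyltransferase gene (137 in A, 103 in B), to taf51, of a TFIID subunit (386 and 104), to mcp4 (141 and 104) and to mrpl40, of a mitochondrial ribosomal protein (236 and 111). Their shares were less exact. Gene mrpl40 had 76.8% of its reads at position 103 in A (Wilson interval 71.2% to 81.5%) and all of them in B (97.1% to 100%). Gene taf51 had 98.8% at position 23 in A and 83.3% in B, with 14.2% of its B reads 93 nt farther on. Such intervals cover counting error only, since reads of 1 library need not be independent molecules.

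Single-position genes filled the range down to the edge of the rule. In the lower of the 2 libraries the share was 75% to 80% in 95 genes, 80% to 85% in 79, 85% to 90% in 66, 90% to 95% in 42 and 95% or more in 37. The median share was 86.0% in A and 86.6% in B, against 41.03% and 42.2% in the other genes, a difference fixed by the rule. Just inside were rfc2 (83.5% in A, 75.001% in B), rpl3201 (75.03% and 75.6%), the helicase gene pfh1 (77.6% and 75.08%) and the tyrosine phosphatase gene pyp1 (99.3% and 75.09%). Just outside were SPAC27D7.09c (76.0% in A, 74.97% in B), trs402 (74.95% and 81.0%) and miy1 (75.4% and 74.94%).

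**Figure D2:**
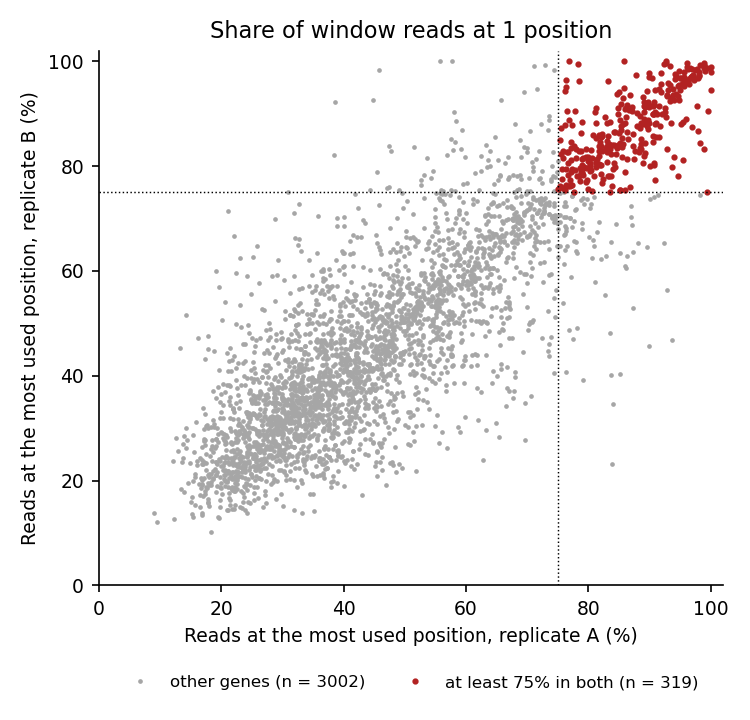
Share of window reads at the most used position (%) in replicate A (horizontal axis) and replicate B (vertical axis), 1 point per gene, with dotted lines at 75%. The 319 single-position genes fill the upper right corner, and grey points continue without a gap on either side of the lines.

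The choice made in 1 library was read in the other. Of 403 genes, 12.1%, that passed 75% in A, 319 or 79.2% passed in B as well, and their median share was 84.9% in A and 83.6% in B. Of 420 genes, 12.6%, that passed in B, 76.0% passed in A, with medians of 84.4% in B and 83.0% in A. Thus 84 genes passed in A alone and 101 in B alone. The lowest values in the second library were 23.1% for SPBC887.12, which had 83.8% in A, and 30.9% for vam6, which had 75.002% in B.

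The identity of the position was not used by the rule. All 319 single-position genes had the same most used position in A and B, against 2213 of the 3002 others (73.7%) and 76.2% of all 3321. It was also the same in 402 of the 403 genes chosen in A and in 418 of the 420 chosen in B. A position with most of the reads in both libraries leaves little room for the order of positions to change. The share itself differed between libraries by a median of 2.29 points, and by 24.2 points in pyp1, the gene with the largest difference. That gene had 24.5% of its B reads 143 nt upstream of the main site.

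Outside the main position few reads remained, which the rule fixes in advance, and they were mostly close by. The second position took a median of 5.30% of the reads in A and 5.20% in B. It lay within 20 nt of the first in 239 of the 316 genes with a second position in A (75.6%, against 59.1% of all genes) and in 227 of 316 in B (71.8%, against 57.6%). The median distance was 7 nt in A and 8 nt in B, and for other genes 13 and 15 nt. The second position was upstream in 143 genes and downstream in 173 in A, and upstream in 142 and downstream in 174 in B. These directions were not counted over all genes. A median of 97.5% of the reads in A and 97.8% in B lay within 20 nt of the site. All reads lay at 1 position in 3 genes in A (SPBC1289.14, csn4 and cut23) and in 3 in B (crr1, mrpl40 and the splicing factor gene xap5), and in none in both libraries. Over all 3321 genes, 3318 in A and 3316 in B had a second position.

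The second position lay over 100 nt away in 23 of 316 genes in A and in 32 of 316 in B. Such distant positions were not counted over all genes. The respiratory gene rcf2 had 85.3% of 1748 reads at position 389 in A and 91.8% of 1717 in B, and its second position lay 317 nt upstream in both, with 4.36% and 2.53%. In gpm1 the second position, 47 nt downstream, took 11.8% of the reads in A.

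Single-position genes ended closer to the stop codon than the other genes. Their site lay at a median of 115 nt (quartiles 58 and 207.5 nt), against 141 nt in A for the others. It lay within 100 nt in 144 of 319 (45.1%), against 36.6% of all genes and 35.6% of the others. The difference was largest nearest the stop codon: 70 genes (21.9%) had the site at 1 to 50 nt, against 15.1% of all genes, and 74 (23.2%) at 51 to 100 nt, against 21.4%. At 101 to 200 nt were 91 genes (28.5%, against 30.8%) and at 201 to 300 nt 44 (13.8%, against 19.9%). Farther out were 17 genes (5.33%, against 6.29%) at 301 to 350 nt and 23 (7.21%, against 6.47%) at 351 to 400 nt. Cytosolic ribosomal protein genes, most of which end near the stop codon, carried much of this. Without them the median was 128.5 nt in 278 single-position genes and 145 nt in 2902 others, and 38.1% and 34.0% had the site within 100 nt.

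**Figure D3:**
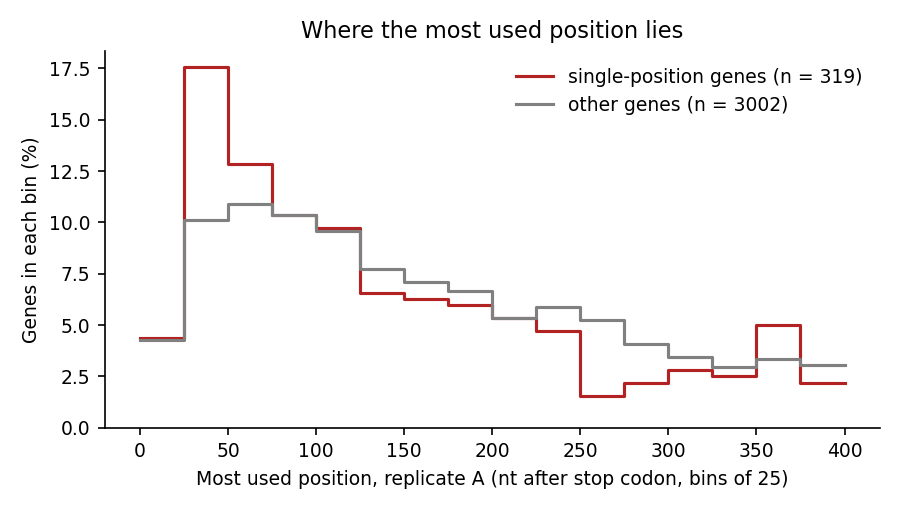
Percent of genes (vertical axis) with their most used position in each bin of 25 nt after the stop codon (horizontal axis, replicate A), for 319 single-position genes and 3002 others. The red line lies above the grey one from 25 to 75 nt and below it over most bins from 125 to 350 nt.

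The shortest 3' end belonged to csn4, of a subunit of the COP9 signalosome, which regulates ubiquitin ligases. It had all of 223 reads at position 3 in A (Wilson interval 98.4% to 100%) and 97.9% of 125 in B (94.1% to 99.3%), so that 3 bases, and at most the 3 A that follow them in the genome, separate the stop codon from the tail. Reads inside its open reading frame (ORF) were 9.09% of its ORF and window reads in A and 11.1% in B. Next were SPBC1778.07, annotated as a carnosine N-methyltransferase (position 13; 79.7% of 2036 reads in A, 79.6% of 1481 in B), and the ribosome biogenesis gene yar1 (position 14; 90.8% of 4906 and 94.6% of 6855). They were followed by cut23, of a subunit of the anaphase-promoting complex (position 16; 100% of 165 and 94.5% of 284), and orc6, of the origin recognition complex (position 17; 98.2% of 364 and 84.5% of 296). All of these had an annotated 3' end farther out, at 101, 71, 207, 21 and 55 nt in this order.

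At the other end, 23 genes had their site past 350 nt, and there the window limits what can be seen. The annotated end lay past 400 nt in 13 of these 23 and within it in 9, and 1 had no annotated 3' UTR. The farthest sites were those of csr102, a phosphatidylinositol transfer protein gene (position 397; 80.3% of 1593 reads in A, 80.1% of 866 in B), and plo1, of the Polo kinase of mitosis (position 394; 97.7% of 124 and 91.4% of 193). The UTRs of csr102 and plo1 are annotated as 492 and 474 nt long, past the window, so a further site could not be counted. Then came mcp4 (position 392; 97.4% of 141 and 98.3% of 104), SPBC365.16 (position 392; 89.9% of 311 and 91.3% of 190) and rcf2 (position 389). SPBC365.16 has its annotated end at 393 nt, and rcf2 at 1847 nt, past the window. Over all single-position genes 36 (11.3%) had an annotated end past the window, against 21.9% of all 3321 genes.

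The sites lay nearer to the annotated 3' ends than those of other genes. Annotated 3' UTRs were found for 312 single-position genes (97.8%, against 97% of all), and 109 of these (34.9%) had the site within 10 nt of its end, against 19.3% of 3223 genes and 17.6% of the others. It was exactly at the end in 9 (2.88%, against 2.11%). In 169 (54.2%) it lay more than 10 nt before the end, against 71.5% of all, and in 34 (10.9%) more than 10 nt beyond it, against 9.18%. The median difference of site and annotated end was -17 nt, against -67 nt in the others. Among genes with an annotated end within 400 nt, 39.5% of 276 single-position genes and 23.1% of 2220 others lay within 10 nt of it. The site of gas1, of a cell wall glucanosyltransferase, was at position 246, where its annotated UTR ends, with 89.3% of 16480 reads in A and 91.3% of 9051 in B. The largest steps beyond it were those of mpg1 (site at 322 nt, annotated end at 67 nt), ggc1 (260 and 45 nt) and mcs6 (339 and 132 nt), which were chosen after their values were seen.

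Deep genes were more often single-position genes. The median total was 1571 normalised reads in A and 1268 in B, against 735 and 596 in the other genes. By the lower of the 2 totals, 59 of 991 genes (5.95%) with 100 to 300 reads met the rule, 87 of 1071 (8.12%) with 300 to 1000 and 64 of 639 (10.02%) with 1000 to 3000. With 3000 to 10000 reads it was 44 of 311 (14.1%), and with 10000 or more 65 of 309 (21.04%). In that last group 37 of 129 ribosomal protein genes (28.7%) and 28 of 180 others (15.6%) met it. In the first group a gene had few reads from which to estimate the share, and the part of depth in these counts was not tested.

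The lower position of single-position genes was seen at most depths but not all. In the 4 groups below 10000 reads between 36.4% and 41.4% of single-position genes and between 32.7% and 35.6% of others had the site within 100 nt. At 3000 to 10000 reads the values were nearly equal, 36.4% and 35.6%. At 10000 reads or more it was 64.6% and 55.7%. Without ribosomal protein genes that order turned in the deepest group, to 28.6% of 28 genes against 38.2% of 152.

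Reads in the ORF were few. They made up a median of 0.211% of the ORF and window reads of single-position genes in A and 0.425% in B, against 0.353% and 0.843% in the others. They exceeded the window reads in 1 gene in each library: in A in meu18 (58.3%, and 47.5% in B), against 0.452% of all genes, and in B in tht2 (65.5%, and 42.5% in A), against 0.542%. For these genes most reads of that library lay before the stop codon, and the position after it is the leading end of the window only. Gene nup107, of the nuclear pore, was similar, with 47.2% in A and 46.7% in B.

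By function, the largest group was that of the cytosolic ribosome. The products of 41 single-position genes are cytosolic ribosomal proteins, 12.9% of the 319, and these are 29.1% of the 141 such genes with enough reads, against 9.61% of all genes. Their sites ran from position 26 to 250, with a median of 44 nt, against 53 nt for the other 100 ribosomal protein genes. The gene with the site at 250 nt was ubi2, of a fusion of ubiquitin and ribosomal protein L40, with 81.4% of 64304 reads in A and of 64091 in B. Most ribosomal proteins of this yeast are made from more than 1 gene copy, and copies were grouped by symbols that differ only in a final copy number, which misses some pairs. Of 52 such groups with several measured copies, all copies met the rule in 4, some in 23 and none in 25. These counts were not compared with what the 29.1% of single genes would give.

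The sites of the copies are given for the groups where all copies met the rule. Most ribosomal protein genes end near the stop codon, and whether copies lie closer to each other than unrelated ones was not tested. Genes rpl501 and rpl502 ended at 43 and 32 nt, with 96.7% and 96.0% of their reads there in A and 96.9% and 96.3% in B. Genes rps1401 and rps1402, of uS11, ended at 117 and 129 nt, with 95.6% and 96.7% in A. The copies of eS25 ended at 47 nt (rps2501, 78.7% in A and 82.8% in B) and 44 nt (rps2502), and those of uL15 at 47 nt (rpl2801, 76.6% and 76.3%) and 32 nt (rpl2802). Of the acidic stalk protein P2, rpp201 ended at 67 nt (89.2% and 88.3%) and rpp202 at 39 nt (85.2% and 83.9%), while the third measured copy did not meet the rule. How reads shared by near-identical copies were assigned is not given in the sources used here, so values of duplicated genes carry that uncertainty.

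Other parts of translation contributed fewer genes, and apart from eIF3 their shares were not far from the 9.61% of all genes. The initiation factor eIF3, which helps the small ribosomal subunit to bind mRNA, had 4 of its 10 genes among them (40%): moe1 (position 134; 97.2% of 34953 reads in A, 96.4% of 20255 in B), tif302 (186), tif307 (375) and tif313 (34). Translation factors, these 4 included, had 7 of 52 (13.5%), with sce3, an eIF4B-like factor, at position 336 (81.7% of 90056 and 80.3% of 70744) and eft202, of elongation factor 2, at 67 (75.4% of 68736 and 76.1% of 57880). Ribosome biogenesis had 11 of 95 (11.6%), among them imp3 of the U3 particle (position 116; 88.4% of 22965 and 87.3% of 22064) and the kinase gene rio2 (position 126; 80.6% of 6882 and 75.3% of 5084). These lists spread over the window, unlike the cytosolic ribosomal proteins. Mitochondrial ribosomal proteins had 6 of 56 (10.7%), with mrp5 at position 53 (93.3% of 2003 and 95.5% of 2048) and SPBC16A3.14 at 127. Aminoacyl-tRNA ligases, which charge tRNAs, had 3 of 25 (12%): ala1 at 115, frs2 at 21 and msw1 at 89 nt.

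In transcription, 8 of 28 genes of RNA polymerase subunits met the rule (28.6%, against 9.61% of all genes): rpa2 and rpa12 of polymerase I, rpb9 of polymerase II, rpc2 and rpc34 of polymerase III, and rpb6, rpb10 and rpc19, which are shared between enzymes. Their sites lay far out, at a median of 282 nt, against 209.5 nt over all 28 genes, with rpc2 at 35 nt as the exception. Gene rpa12 had 76.6% of 13135 reads at position 352 in A and 82.6% of 11625 in B, and rpa2 had 78.5% of 10853 at position 278 in A and 82.8% of 15050 in B. Of TFIID and the proteins that bind TATA-binding protein, 4 of 13 met it (30.8%): tbp1, of TATA-binding protein itself (position 249; 96.3% of 2178 reads and 98.4% of 2151), taf5 (24), taf51 (23) and taf13 (346). In tbp1 the ORF held 12.6% of the ORF and window reads in A and 13.9% in B. Splicing genes, with 6 of 65 (9.23%), stood at the background, with lea1, of the U2 particle, at position 57 (97.7% of 2400 and 98.6% of 1910) and ntr1 at 102.

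In metabolism, purine and pyrimidine genes had 7 of 24 (29.2%, against 9.61% of all genes). They were cts1, of CTP synthase (position 124; 82.8% of 150684 reads in A, 83.5% of 164306 in B), gua2, of GMP synthase (139; 89.0% of 40080 and 93.3% of 66730), gua1, of IMP dehydrogenase (62), apt1, of a salvage enzyme (164), ade5 (40), adk1, of adenylate kinase (102), and urg3, a uracil-regulated gene (155). Respiratory chain and ATP synthase genes had 6 of 37 (16.2%), at a median of 275 nt: qcr7, qcr9 (272) and rip1 (278; 85.7% of 8562 and 84.3% of 6742) of complex III, atp7 (33) and atp15 (185) of ATP synthase, and rcf2. Amino acid synthesis, with 6 of 64 (9.38%), stood at the background; its deepest were lys9 (position 170; 75.9% of 15631 and 82.9% of 10629) and met14 (98; 84.7% of 10341 and 83.6% of 8580). Glycolysis had 2 of 15 (13.3%), gpm1 and gpd3, of a glyceraldehyde-3-phosphate dehydrogenase (position 317; 94.0% of 18657 and 92.6% of 17353).

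Among regulators and transport genes, DNA replication had 7 of 36 (19.4%, against 9.61% of all genes). The deepest were spp1, of primase (position 149; 91.6% of 3250 reads in A, 94.6% of 3152 in B), and rfc4, of the clamp loader (23; 83.3% of 4192 and 84.3% of 3100), beside rfc1, rfc2, orc6, mcm2 and drc1. Protein kinases had 7 of 46 (15.2%), at a median of 295 nt, with orb6, of a polarity kinase, at 148 nt (83.1% of 888 and 96.3% of 1249). Membrane transporters had 12 of 87 (13.8%), with the phosphate transporter gene SPBC1703.13c at 108 nt (78.9% of 14593 and 78.6% of 10233) and str1, of a siderophore transporter, at 284 nt (84.7% of 3348 and 83.4% of 4728). That list was searched by name, and its 12 include csr102, the phosphatidylinositol transfer protein gene. Mitochondrial import had 2 of 15 (13.3%): tim9 (position 222; 98.0% of 55254 and 97.9% of 54899) and mas2 (113). Cell wall and glycan genes had 6 of 48 (12.5%), gas1 and agn2 (122) the deepest, and nuclear pore genes 3 of 28 (10.7%), close to the background, with ely5 at 175 nt.

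A few groups stood under 6%, against 9.61% of all genes. Chaperones had 4 of 86 (4.65%), with SPAC4H3.01 at position 167 (93.3% of 57906 reads and 92.4% of 67134) and fes1, of an Hsp70 exchange factor, at 77. The proteasome had 2 of 38 (5.26%), rpn6 and ump1 (199), and histones 0 of 8. Ubiquitin conjugation and removal, with 11 of 94 (11.7%), stood close to the background, with the conjugating enzyme gene ubc4 at 42 nt and the ligase gene rkr1 at 130 nt. Of 426 genes without a standard name 25 (5.87%) met the rule. At least 1 list held 160 of the 319 genes, and 159 were in none. These shares were not tested, and lists of 10 to 30 genes change by several points with 1 gene. No list was compared with genes of like depth. By the lower of the 2 totals, the eIF3 genes had a median of 12094 reads. At 10000 reads or more, 15.6% of genes outside the cytosolic ribosome met the rule.

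**Figure D4:**
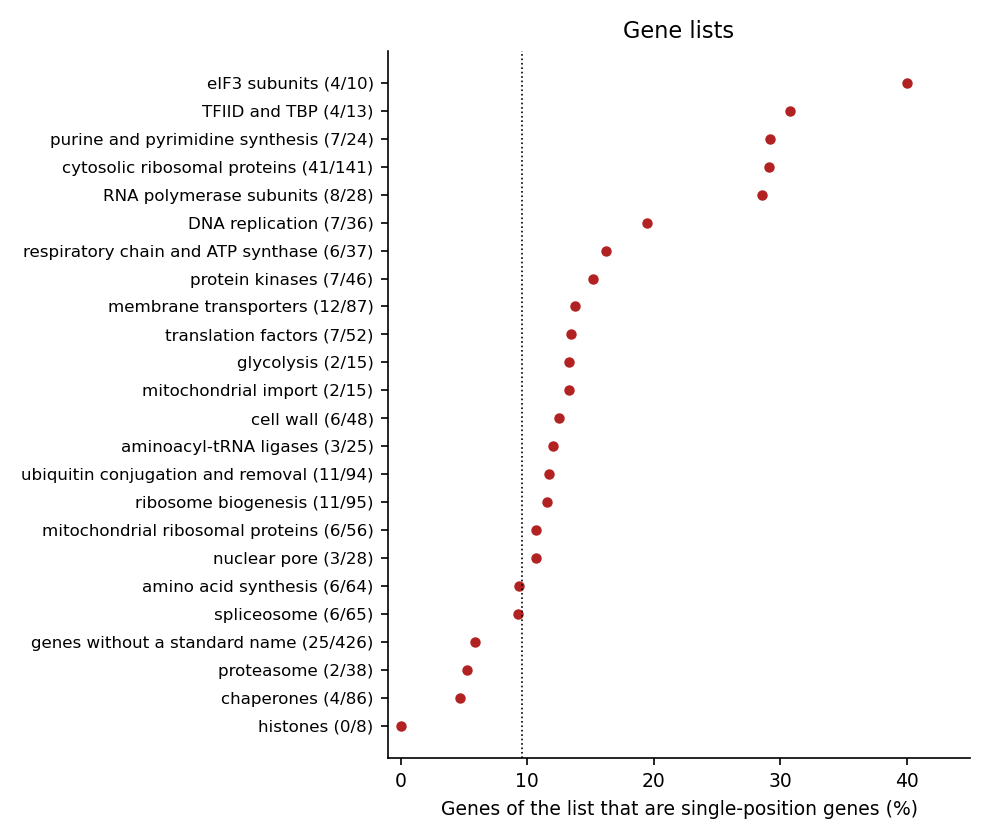
Percent of the genes of each list that are single-position genes (horizontal axis), with the number of such genes and of all genes with enough reads in brackets, and a dotted line at the 9.61% of all genes. Subunits of eIF3 (40%), TFIID (30.8%), nucleotide synthesis (29.2%), cytosolic ribosomal proteins (29.1%) and RNA polymerase (28.6%) stand highest, and histones at 0.

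The base after the site was almost always A, which bears on what a single position is. No read was placed on an A anywhere in the windows, at 0 of 66410 positions with reads in A and 0 of 56484 in B, although 32.1% of the bases there are A. An end inside a run of A cannot be told from an end before it, since the tail has the same bases, and the deposited tables give all such ends at the last base before the run. A single position therefore covers every end within the run that follows it. The next base was A in 316 of the 319 genes (99.1%), against 97.8% of all genes.

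The run of A was longer in single-position genes. It had at least 2 bases in 213 (66.8%), against 53.9% of all genes and 52.5% of the others, and at least 3 in 118 (36.99%), against 23.7% and 22.3%. In turn, 7.07% of the genes with 1 A met the rule, 9.48% with 2, 14.4% with 3 and 18.3% with 4. Of 61 genes with 5 it was 8.20%. The sequences printed above show runs of 3 in rps2502, rpn6, SPBC1289.14, rpl501 and csn4. Runs of at least 4 stand in cog5, rpl42 and cut23, and runs of 2 in rpl2802 and rps102. Gene qcr7 has 1 A and 98.8% of its window reads at the site in A. Outside the rule, miy1 has a run of 3 and trs402 has 1 A. In each of the 5 groups by depth, runs of at least 3 were more frequent in single-position genes (29.6% to 45.3%) than in others (19.7% to 23.6%). Among ribosomal protein genes they were found in 46.3% of the 41 and in 21% of the 100 others. When reads within 2 nt of the most used position were counted with it, 426 genes met the rule. How much of the share comes from ends that fall within the run was not tested.

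**Figure D5:**
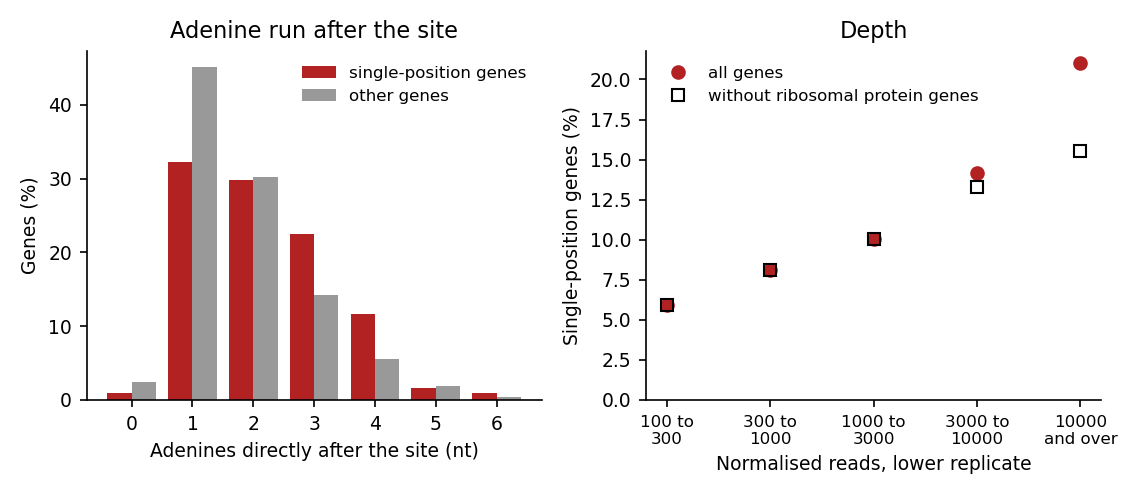
Left, percent of genes (vertical axis) by the number of A directly after the site (horizontal axis, 0 to 6 nt) for 319 single-position genes and 3002 others. Right, percent of genes that meet the rule by normalised reads in the lower replicate, with all genes as filled circles and without ribosomal protein genes as squares: it goes from 5.95% to 21.04%, or to 15.6% without them.

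The A-rich element upstream was also more frequent. The search took AATAAA or a hexamer with any 1 base of it changed, 18 variants in all, on the coding strand and whole within the stretch from 10 to 40 nt before the site, where several overlapping matches count once. It was found in 253 of the 319 genes (79.3%), against 71.5% of all genes and 70.7% of the others. AATAAA itself was found in 99 (31.0%), against 21.4% and 20.4%, and started a median of 21 nt before the site (23 nt in the others). In the same stretch after the site, the wider search found a match in 37.9% and AATAAA in 3.13%, against 36.6% and 4.76% of all genes. AATAAA stands 22 nt before the site in rps2502 and rpl2802 and 19 nt before it in rpn6. It is not in the stretch of qcr7, gpm1, rpl501 or csn4, and neither is a variant. In the 5 groups by depth AATAAA was found in 27.3% to 36.9% of single-position genes and 18.6% to 24.6% of others. The wider search found a match in 73.9% to 84.4% and 68.7% to 72.2%. The closest values, 73.9% and 71.7%, were those at 10000 reads or more. Among ribosomal protein genes the order of the wider search turned, with 75.6% of the 41 and 79.0% of the 100 others. A match describes the letters only.

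Around the site T was the most frequent base at many offsets. At 7 nt before the site 62.7% of single-position genes had T, against 53.1% of the others, and 15.05% had A, against 21.4%. The site base was T in 59.6%, C in 26.0% and G in 14.4%, against 55.0%, 26.0% and 19.02% in the others. At 7 nt after the site T was found in 52.7%, against 42.3%, and A in 18.2%, against 29.5%. These 2 offsets are among those with the largest differences. At 1, 2 and 3 nt after the site T was less frequent than in the rest (0% and 1.23%, 25.1% and 28.2%, 37.6% and 40.5%), and at 4 nt before it was about as frequent (37.3% and 36.9%). The median number of T was the same in single-position genes and others, 5 in the 10 nt before the site and 3 in the stretch from 4 to 9 nt after it.

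Convergent neighbours were counted on the annotation. The next coding gene downstream was convergent, that is on the opposite strand and read towards the gene, in 171 of 319 (53.6%), against 58.9% of all genes and 59.5% of the others. Among single-position genes with at least 1000 reads in both libraries it was 58.96%. The background was not computed at that minimum, so whether the share is lower there was not tested. With noncoding genes counted it was convergent in 58.0%, against 66.4% of all. It lay at a median of 545 nt from the stop codon, against 497 nt in the others. For convergent neighbours it was 409 against 372 nt, and for tandem neighbours, on the same strand, 697 against 703 nt. It lay within 400 nt in 112 genes (35.1%), against 37.3% of all.

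With a convergent neighbour the site lay at a median of 106 nt, against 130 nt in other genes, and with a tandem neighbour at 122 nt, against 157.5 nt. Single-position genes thus ended closer to the stop codon with either kind. With the next gene over 400 nt away the medians were 145 and 176 nt. The strand and chromosome of the genes were those of the background: 159 lay on the plus strand (49.8%, against 48.8%), 145 on chromosome I (45.5%, against 46.5%), 123 on II (38.6%, against 37.7%) and 51 on III (16.0%, against 15.8%).

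Few single-position genes ran into the next coding sequence. The site lay past its near end in 5 genes (1.57%, against 3.58% of all). All 5 have a convergent neighbour, which makes 2.92% of the 171 such genes, against 5.77% of all with one, and none of the 148 with a tandem neighbour, against 0.44%. Gene sdj1, of a glyoxylase, has the neighbour SPAC22E12.02 at 2 nt and its site at 320 nt (76.1% of 557 reads in A, 94.4% of 231 in B). Gene rpp102, of the acidic ribosomal protein P1, has trs23 at 9 nt and its site at 33 nt (81.2% of 73032 and 79.8% of 68146). The others were epr1, of a co-chaperone (neighbour at 66 nt, site at 234), rns1 (205 and 354) and pus3, of a tRNA pseudouridine synthase (161 and 382; 94.8% of 714 and 98.2% of 529). Gene rpl4302, with ucp8 at 30 nt, ended at position 26, before it, and rna15, whose namesake in Saccharomyces cerevisiae is a subunit of a cleavage factor, with mrpl9 at 60 nt, at position 21 (84.2% of 758 and 84.1% of 689).

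Close tandem neighbours lay at 157 nt from vma5, of the vacuolar ATPase (site at 40 nt; 87.3% of 395 reads in A, 86.0% of 317 in B), at 184 nt from nam9, of a mitochondrial ribosomal protein (58 nt; 96.9% of 804 and 87.5% of 935), and at 219 nt from csn4. Each of these 3 ended before the next start codon.

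Of 128 convergent neighbours with enough reads, 19 were single-position genes too (14.8%, against 8.70% of 1472 over all genes), and of 101 tandem neighbours 8 were (7.92%, against 9.41%). In 9 convergent pairs each was the other's next gene: SPAC144.01 with por1, ypa2 with phb1, lsh1 with hem14, rfc2 with SPAC23D3.03c, paf1 with rps1602, rns1 with mrh5, tif307 with sce3, orc6 with ess1 and mmt1 with rpb6. Such pairs share the sequence between them, and each of them is counted from both sides among the 19. The sites passed each other in 26 of the 128 (20.3%), against 26.2% of all. In the pair lsh1 and hem14, whose stop codons lie 234 nt apart, the sites at 55 and 205 nt overlap by 27 nt, and hem14, of a heme synthesis enzyme, had 97.1% of 1023 reads there in A and 97.4% of 1576 in B. The translation genes tif307 and sce3 face each other over 1577 nt and end 865 nt short of meeting.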

How the data were processed

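The authors deposited 1 table for each replicate and 1 merged table of signal values, called normalised reads here. Per the file headers they cover the position with the most reads, the window of 400 nt that starts 1 nt after the stop, and the ORF. The authors also deposited the first of these as a percent of the second. How they were scaled is not stated. At the position with the most reads, all values of at most 1000 were whole multiples of 1 step (0.930 in A and 0.869 in B, with a tolerance of 0.1). Window and ORF sums were not checked for this. Bowtie was used, per the submitters' processing notes; version, settings and build: not given in the sources used here. Shares, positions, Wilson intervals and medians were computed with Python 3.11.15, pandas 2.3.3 and SciPy 1.17.1. The rule, the hexamer search, the count of A runs and the neighbour search were checked on simulated or constructed input. Wilson intervals used normalised reads divided by the step as counts, for SPBC1289.14 in A 163. Neighbours, annotated ends and sequence came from RefSeq ASM294v3, whose coordinates equalled the deposited site coordinates in all 4796 genes with reads in A and 4787 in B. No test was made. Gene lists were searched in product names and symbols; histone ubiquitin ligases, a chitinase gene and a tRNA ligase gene were then taken out of 2 lists. The members and lists were chosen with earlier results of these data known. Genes are named by a fixed rule: extremes of share, total, position and neighbour distance, and the 2 deepest of each list, with further members where the text counts them; 1 gene that the rule names is not reported here. Alternatives changed the share, the minimum total, the table and the replicate.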

Additional observations from a re-analysis of the deposited data

Results flagged for a closer look

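Among features that are not protein-coding and enter no comparison, 4 had at least 100 normalised reads in both replicates. In replicate A these were 104.1 for the pseudogene SPAC23D3.05c, 853 for SPBPB21E7.08, 2512 for the tRNA feature SPBTRNAASN.02 and 127 for SPCC188.10c. None met the rule in both replicates. The nearest was SPCC188.10c, with 86.9% of its reads at position 79 in A and 70.7% in B.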

How the results depend on the processing

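The number of single-position genes, 319, was 79 at a share of 90% and 173 at a minimum of 1000 normalised reads. It stayed within 1.5 times with a share of 70% (419), a minimum of 20 (384), the merged table (446), ORF reads in the total (296), reads within 2 nt (426), no ribosomal protein genes (278, chosen after seeing the data) and 1 replicate alone (432 to 441). The median position, 115 nt, was 120 nt at 70%, 94 nt at 90%, 104 nt at 1000 reads, 120 nt at 20 reads, 125 nt in the merged table, 119.5 nt within 2 nt, 128.5 nt without ribosomal protein genes and 122 to 123 nt with 1 replicate left out. The share of sites within 100 nt was 51.9% at 90% and 38.1% without ribosomal protein genes. With AATAAA alone the upstream match fell from 79.3% to 31.0%. Cytosolic ribosomal protein genes made up 20.3% of the genes at 90%, 23.7% at 1000 reads, 9.19% in the merged table and 9.49% to 9.52% with 1 replicate left out. The share with a convergent neighbour, 53.6%, was 58.96% at 1000 reads and 51.8% to 58.0% under the others. Each alternative selects another set of genes, so these values are not repeats of 1 measurement. No paired analysis was possible because there is 1 group. The share of a gene near 100 reads is known to several points only.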
